A study of Rattus norvegicus with 9 samples.

Results

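The neuropeptide genes Calca, Calcb, Tac1, Sst and Nppb, which uninjured sensory neurons transcribe, were followed in RNA-Seq of rat dorsal root ganglia (DRG). They were taken by gene symbol, and they are 5 of the 20194 genes in the table. The samples came from adult male Sprague-Dawley rats, 8 to 10 weeks old, in 3 groups of 3, and the study worked on the L4 to L6 ganglia of the operated side. The sham group was sham-operated. The SNI group had spared nerve injury, in which the tibial and common peroneal branches of the sciatic nerve are tied and cut and the sural branch is left intact. The SNI + G15 group had the same injury and received G15, an antagonist of the G protein-coupled estrogen receptor GPER, for 24 h through an intrathecal catheter placed on day 5. Day 5 was set for both sampling and drug treatment. G15 was dissolved in dimethyl sulfoxide, at 2% in the sample labels and 1% in the study's methods. The labels give a catheter, vehicle and injection for the SNI + G15 group alone. Whether the sham and SNI rats received a catheter or vehicle is not given in the sources used here. In comparisons with the SNI + G15 group, the drug therefore cannot be told apart from catheter, vehicle or added time after injury. Strain, sex and tissue were shared by all 3 groups, and no group carried a transgene. Each library holds whole ganglia, in which neurons with cut and with intact axons lie side by side, and whether it stands for 1 rat or a pool cannot be told from the sources used here, where the sequenced rats of a group are put at 3 in one place and at 6 in another. The p-values therefore measure the spread between these samples, which may be partly technical.

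The study used SNI as a model of neuropathic pain and asked what blocking GPER does to the injured ganglion. Calca and Calcb encode the precursors of the calcitonin gene-related peptides αCGRP and βCGRP, vasodilator peptides that peptidergic nociceptors release at both ends of their axons. Alternative splicing lets Calca encode calcitonin as well. Tac1 encodes preprotachykinin, the precursor of substance P and neurokinin A. Sst encodes somatostatin, an inhibitory peptide, and Nppb encodes B-type natriuretic peptide, which in mice transmits itch from the same small class of neurons that holds Sst. All are made as long precursors, cut by convertases, packed in dense-core vesicles, and read by G protein-coupled receptors or, for Nppb, by a receptor guanylyl cyclase.

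Library totals lay between 18484557 and 18756736 estimated reads, so depth was alike across the groups. Ganglion neurons were well represented, since the summed level of 13 pan-neuronal markers lay between 9537 and 11378 FPKM (fragments per kilobase of gene, scaled to the mapped total of the library). Markers of spinal cord neurons, oligodendrocytes and astrocytes summed to 4.32 to 9.63 FPKM, and 10 of these 12 genes stayed below 1 FPKM in every library. None of the 12 was at 0 in all libraries. In bulk tissue, fewer cells of a type cannot be told apart from less RNA per cell, and the label nociceptor could not be checked cell by cell.

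Calca, Tac1, Sst and Calcb were among the abundant transcripts of the sham ganglion, and Nppb was scarce. By mean sham FPKM, Calca ranked 92 of 20194 genes, Tac1 ranked 374, Sst 554 and Calcb 749. Nppb ranked 13022. Together the 5 genes took 0.0898% to 0.0974% of the reads in the sham libraries, 0.0863% to 0.0921% after SNI and 0.0976% to 0.109% with G15. Levels between genes are compared here per length, as FPKM. Calca stood 2.63 ± 0.0948 times above Tac1 in sham (SD of the within-library ratio, n = 3), Tac1 stood 1.46 ± 0.156 times above Sst, and Sst stood 1.30 ± 0.159 times above Calcb. No neighbouring pair overlapped in sham. In SNI the order of Sst and Calcb turned, with Calcb 1.20 ± 0.0486 times above Sst and no overlap. In SNI + G15 the values of Sst and Calcb overlapped, at a ratio of 1.10 ± 0.135, so this pair had no order beyond its spread.

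**Figure D1:**
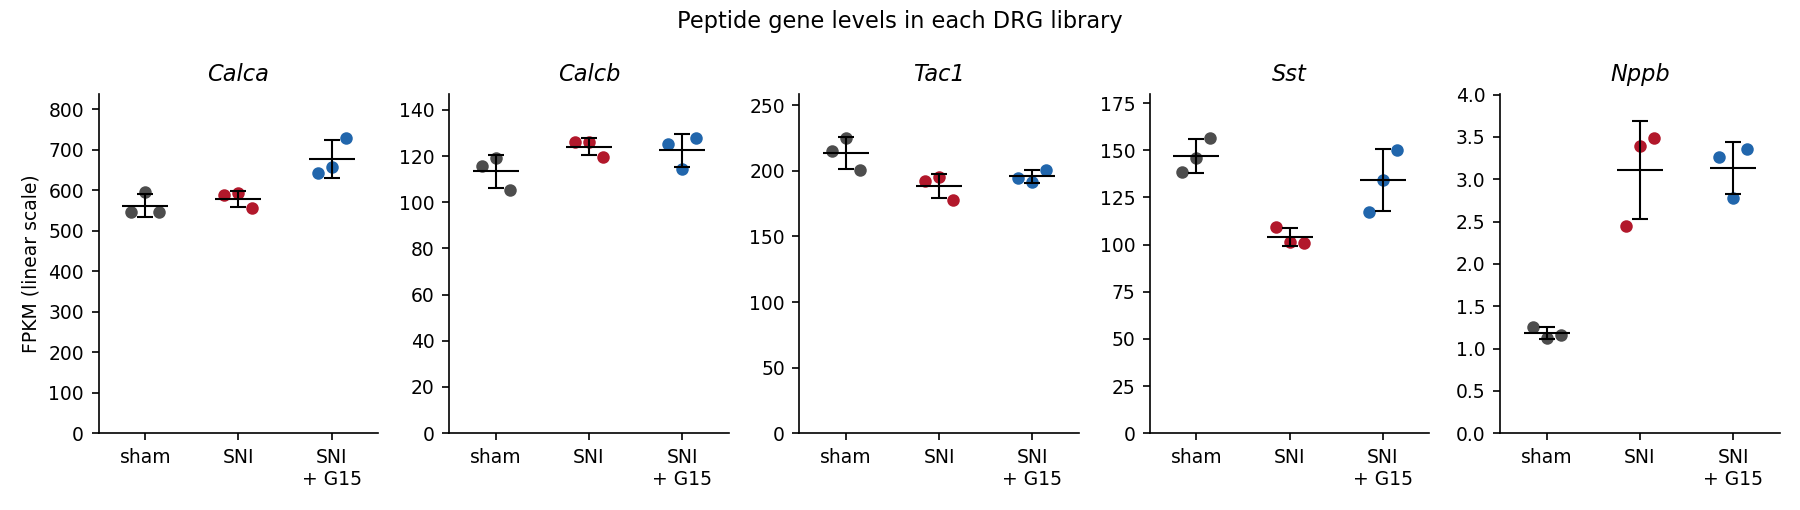
FPKM of Calca, Calcb, Tac1, Sst and Nppb (linear axes from 0, 1 panel per gene) in each of the 9 libraries, with horizontal lines for the group mean and bars for the SD (n = 3). Calca is highest in the SNI + G15 libraries (643 to 730 FPKM), Sst is lowest in the SNI libraries (101 to 109 FPKM), and Nppb is above its sham values in all 6 injured libraries.

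Promoter windows of 300 bases around the annotated gene start were found for 4 of the 5 genes (RefSeq, GRCr8). 3 of them are shown because they hold the cAMP response element, or the 5 bases that make up its half-site, the element through which CREB drives activity-dependent neuropeptide transcription. Capitals mark the matches. The Calca window lies at chr1:178317480-178317779 on the minus strand, the Tac1 window at chr4:36645333-36645632 on the plus strand and the Sst window at chr11:90461296-90461595 on the plus strand.
Calca: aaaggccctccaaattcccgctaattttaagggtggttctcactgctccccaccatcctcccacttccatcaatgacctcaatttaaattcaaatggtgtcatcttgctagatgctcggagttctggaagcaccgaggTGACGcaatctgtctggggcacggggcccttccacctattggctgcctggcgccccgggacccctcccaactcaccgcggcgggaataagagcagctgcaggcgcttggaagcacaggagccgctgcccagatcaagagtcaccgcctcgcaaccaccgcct
Tac1: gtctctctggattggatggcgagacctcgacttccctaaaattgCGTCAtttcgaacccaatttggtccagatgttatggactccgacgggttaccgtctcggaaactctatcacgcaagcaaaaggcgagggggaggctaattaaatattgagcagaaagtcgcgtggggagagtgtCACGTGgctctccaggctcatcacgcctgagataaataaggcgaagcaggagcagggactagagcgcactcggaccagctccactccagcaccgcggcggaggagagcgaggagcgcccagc
Sst: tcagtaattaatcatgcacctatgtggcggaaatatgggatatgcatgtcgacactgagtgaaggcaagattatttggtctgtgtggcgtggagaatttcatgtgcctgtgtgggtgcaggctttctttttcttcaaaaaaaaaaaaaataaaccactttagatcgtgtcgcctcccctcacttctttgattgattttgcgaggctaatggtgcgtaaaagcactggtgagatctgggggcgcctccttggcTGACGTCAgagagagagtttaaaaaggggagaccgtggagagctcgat

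The whole palindrome TGACGTCA was found in the Sst window at bases 3 to 10 after the annotated start. The same letters occur in 1.83% of 33469 RefSeq promoter windows of this length, searched on both strands. The half-site TGACG, which overlaps the palindrome, was found in the Calca window 112 bases before the start and in the Tac1 window 206 bases before the start on the other strand. Of all windows, 21.2% hold it. The Tac1 window also holds the E-box CACGTG, 72 bases before the start, as do 6.42% of windows. None of the 4 windows holds the AP-1 motif TGANTCA, found in 7.33% of windows, and the Nppb window held none of the 4 motifs. A match in such a window describes the letters alone. Neither binding nor the place where transcription starts in these ganglia was measured, so positions hold for the annotated start only.

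After injury, Sst and Tac1 fell, Nppb rose, and the CGRP genes did not pass the test. In SNI against sham, 3 of the 5 genes had an adjusted p below 0.05, where 45.7% of all 14305 tested genes did. Every adjusted p here is from edgeR's quasi-likelihood test, adjusted by Benjamini-Hochberg over all tested genes or transcripts. Nppb was higher, as were 23.3% of all genes, and Sst and Tac1 were lower, as were 22.4%. The same 3 genes were those whose SNI and sham values did not overlap, as was true of 55.3% of all genes. With 5 genes, 3 calls are near this background, and the calls were in both directions.

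Sst read 138, 146 and 157 FPKM in the sham libraries and 109, 101 and 101 FPKM in the SNI libraries. Every SNI value lay below every sham value. Normalised for library size as counts per 1e6 reads (CPM), Sst went from 94.5 ± 6.25 in sham to 65.0 ± 3.15 in SNI (SD, n = 3), which is -0.53 on the log2 scale (standard error, SE, 0.057; adjusted p = 2.88e-05). The level in SNI was 0.692 of that in sham (95% interval 0.634 to 0.756). Leaving out any 1 library gave log2 fold changes between -0.57 and -0.48, all of them called.

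Tac1, the substance P gene, read 215, 225 and 200 FPKM in sham and 192, 195 and 178 FPKM in SNI. The groups did not overlap, although the lowest sham library stood only a little above the highest SNI library. The fall was 13.9% of the sham level, from 213 ± 11.9 to 182 ± 9.03 CPM, which is -0.22 on the log2 scale (SE 0.051, adjusted p = 0.00598). It stayed called when any 1 library was left out.

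Nppb read 1.26, 1.12 and 1.16 FPKM in sham and 2.45, 3.39 and 3.49 FPKM in SNI. These values rest on few reads, namely 14, 13 and 13 in the sham libraries and 28, 38 and 39 in the SNI libraries. Every SNI value lay above every sham value. The rise was 2.56-fold (95% interval 1.69 to 3.86), or 1.35 on the log2 scale (SE 0.268, adjusted p = 0.00199). Nppb is a heart hormone, and 5 heart muscle markers summed to 7.61 to 9.16 FPKM in sham and 5.99 to 6.45 FPKM in SNI. Of the 4 tested, 1 was lower and none higher, Tnnt2 at -1.38 on the log2 scale (adjusted p = 6.01e-05). Macrophage markers summed to 180 to 198 FPKM in sham and 397 to 409 FPKM in SNI, and 9 of 10 rose with a median log2 fold change of 1.17. Over all tested genes, 23.3% were higher and 22.4% lower after injury. The part of either marker list in the Nppb result was not tested.

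Calca read 545, 596 and 545 FPKM in sham and 589, 593 and 556 FPKM in SNI. All 3 SNI values lay within the sham range. The fitted change was 0.013 on the log2 scale (SE 0.043, adjusted p = 0.827), with a 95% interval of -0.083 to 0.109, so that the SNI level was between 0.944 and 1.08 of that in sham. Calcb read 116, 119 and 105 FPKM in sham and 126, 126 and 120 FPKM in SNI. All 3 SNI values were above the highest sham value of Calcb in FPKM, but its CPM values overlapped, and its log2 fold change of 0.098 (SE 0.048, adjusted p = 0.124) did not pass the test. Without sham replicate 2, Calcb passed at 0.13 (adjusted p = 0.0434).

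**Figure D2:**
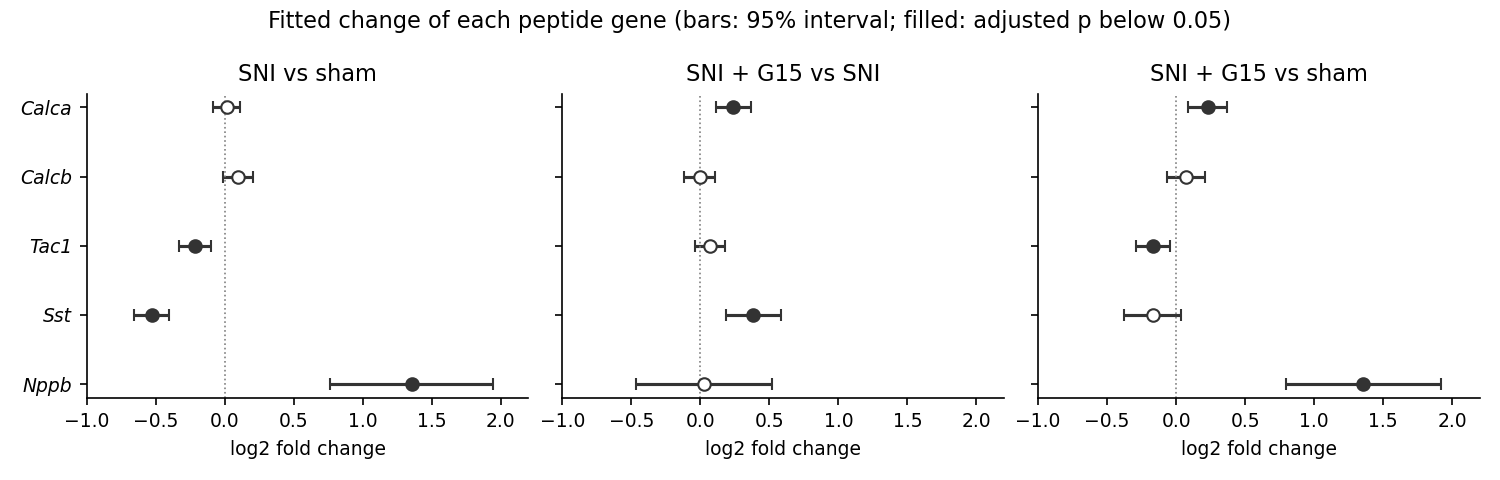
Fitted log2 fold change of each peptide gene in the 3 comparisons (points) with its 95% interval (bars); filled points have an adjusted p below 0.05. Nppb has the widest intervals, and Sst lies at -0.53 in SNI against sham and at 0.38 in SNI + G15 against SNI.

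With G15, Sst and Calca were higher than in SNI, while Calcb, Tac1 and Nppb did not pass the test. In SNI + G15 against SNI, 2 of the 5 genes were called, both higher, where 15.2% of all tested genes were called, 7.98% higher and 7.25% lower. These 2 genes were also the ones without overlap, as was true of 38.9% of all genes.

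Calca read 643, 658 and 730 FPKM in SNI + G15. All 3 values lay above the 593 FPKM of the highest SNI library. In CPM, Calca went from 541 ± 18.9 in SNI to 638 ± 49.8 in SNI + G15 (SD, n = 3), a rise of 17.9%, or 0.24 on the log2 scale (SE 0.057, adjusted p = 0.0253). The call did not stand without SNI replicate 1 (adjusted p = 0.0685), SNI replicate 2 (0.0750) or SNI replicate 3 (0.108), while the log2 fold change stayed between 0.17 and 0.28.

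Sst read 117, 134 and 150 FPKM in SNI + G15, against 101 to 109 FPKM in SNI. The SNI + G15 libraries were more spread than those of the other groups, and the highest fell within the sham range. The rise was 30.3%, from 65.0 ± 3.15 to 84.8 ± 11.2 CPM, or 0.38 on the log2 scale (SE 0.088, adjusted p = 0.0225). Sst was not called without SNI replicate 2 (0.36, adjusted p = 0.0921), SNI replicate 3 (0.36, 0.0911) or SNI + G15 replicate 2 (0.38, 0.0529).

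Neither call stood in a fit that removed a trend of fold change with gene length. In this comparison the median log2 fold change was 0.14 over the 3577 shortest of the tested genes (effective length up to 1525 bases) and -0.097 over the 3576 longest (3851 bases or more). All 5 peptide genes, at effective lengths of 603 to 977 bases, were among the shortest. With library offsets that remove this trend, chosen after seeing the data, Calca had a log2 fold change of 0.078 (adjusted p = 0.125) and Sst 0.14 (adjusted p = 0.117), and neither was called. Calcb then had -0.19 (adjusted p = 0.0309) and was called lower. Markers of other cells moved in this comparison too. Of 10 fibroblast and endothelial markers, 7 were higher and none lower with G15, where 7.98% and 7.25% of all genes were. Their summed level was 495 to 497 FPKM in SNI but 665 to 694 FPKM with G15. Of 5 erythroid markers all were lower, where 7.25% of all genes were, from 324 to 331 FPKM in SNI to 193 to 227 FPKM in SNI + G15. Their part in the Calca and Sst results was not tested.

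Tac1 read 195, 191 and 201 FPKM in SNI + G15, and these overlapped the SNI values. Its log2 fold change against SNI was 0.069 (SE 0.049, adjusted p = 0.357). Calcb read 125, 115 and 128 FPKM, a log2 fold change of -0.0066 with a 95% interval of -0.121 to 0.107. Nppb read 3.26, 2.78 and 3.36 FPKM, from 37, 31 and 38 reads, a log2 fold change of 0.026. Its 95% interval ran from -0.47 to 0.52, which holds both no change and a rise of 1.43-fold.

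Set against sham, the SNI + G15 ganglia had more Nppb and Calca and less Tac1. Here 3 of the 5 genes were called, where 43.2% of all tested genes were, 21.4% higher and 21.9% lower, and the same 3 did not overlap, as was true of 53.9% of genes. This comparison shares its sham libraries with the first and its G15 libraries with the second, and its values are given only beside them. Nppb was 2.56-fold higher (log2 fold change 1.36, SE 0.251, adjusted p = 0.00164). Calca had a log2 fold change of 0.23 (SE 0.064, adjusted p = 0.0160), which was not called without sham replicate 1 (adjusted p = 0.0649) or sham replicate 3 (0.0636). Tac1 had -0.17 (SE 0.056, adjusted p = 0.0342) and was not called without sham replicate 1 (adjusted p = 0.0903), sham replicate 2 (0.124), SNI + G15 replicate 1 (0.116) or SNI + G15 replicate 2 (0.125). Sst, at -0.17 (SE 0.092, adjusted p = 0.165), did not pass, but it did without SNI + G15 replicate 3 (-0.26, adjusted p = 0.0220) and with the length offsets (-0.36, adjusted p = 0.00123). Calcb had 0.068 (SE 0.061, adjusted p = 0.400). With the length offsets Calca was smaller, at 0.13 (adjusted p = 0.0127), and Tac1 further from 0, at -0.26 (adjusted p = 0.000885), both still called.

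Ratios between these genes within a library do not depend on scaling by library size, and they were compared with exact two-sided permutation tests. With 3 against 3 samples the smallest p is 0.1, so no such test could pass 0.05, and over 9 tests the adjusted p was 0.1125 or 0.2. Calca was 5.60 times Calcb in sham (ratio of CPM, mean of 3 libraries), 5.27 times in SNI and 6.25 times in SNI + G15. No SNI + G15 library overlapped the SNI libraries in this ratio (exact p = 0.1). Against sham the lowest SNI + G15 library, at 5.80, lay next to the highest sham library, at 5.76, and as a ratio of FPKM these groups overlapped (exact p = 0.2). Calca was 2.53 times Tac1 in sham, 2.97 times in SNI and 3.33 times in SNI + G15, and each of the 3 groups lay apart from the others. Sst was 130 times Nppb in sham, 35.9 times in SNI and 44.9 times in SNI + G15, the last pair overlapping (exact p = 0.2).

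**Figure D3:**
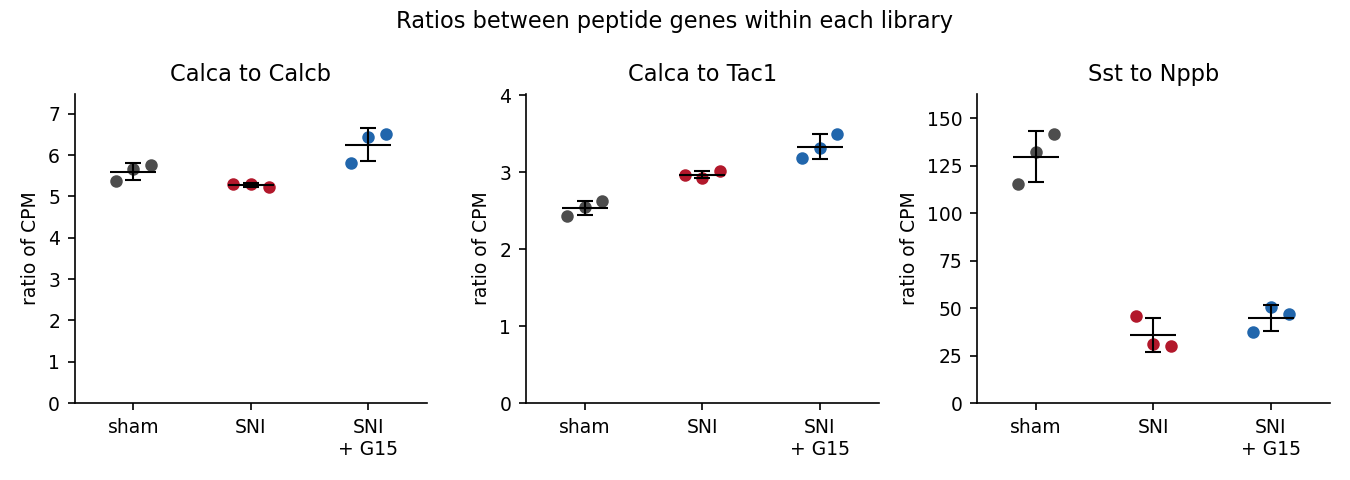
Ratio of CPM between Calca and Calcb, Calca and Tac1, and Sst and Nppb (linear axes from 0) in each of the 9 libraries, with the group mean and SD (n = 3). The Sst to Nppb ratio drops from a mean of 130 in sham to 35.9 in SNI, and the Calca to Tac1 ratio is highest in SNI + G15.

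The reads of the CGRP genes were partly shared between sequences. Estimated counts of Calca and Calcb were not whole in 9 of 9 libraries, as happens when a counter splits reads over like sequences of different genes. Those of Tac1, which has 4 listed forms, Sst and Nppb were whole in all 9. In sham replicate 1 the Calca and Calcb estimates, 9498.56 and 1768.44, add up to a whole number, as when reads are split between these genes. The division of reads between Calca and Calcb is therefore uncertain. With the counts of Calca and Calcb summed into 1 feature, added after seeing the data, SNI against sham had a log2 fold change of 0.026 (adjusted p = 0.641), SNI + G15 against SNI had 0.20 (adjusted p = 0.0369) and SNI + G15 against sham had 0.21 (adjusted p = 0.0211).

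4 splice forms of Calca were listed and all were tested. None was called in any of the 3 comparisons by edgeR, where 10.3%, 0.662% and 10.4% of the 25998 tested transcripts were called in SNI against sham, SNI + G15 against SNI and SNI + G15 against sham. At an unadjusted p below 0.05, none passed in the first comparison, 1 in the second and 2 in the third, and limma-trend called 1 in the third. Which accession encodes calcitonin and which αCGRP is not given in the tables used here.

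The leading form, NM_001033956.1, read 312, 334 and 306 FPKM in sham, 322, 328 and 310.5 FPKM in SNI and 397, 360 and 443 FPKM in SNI + G15. All 3 G15 values were above all SNI values, and against SNI its log2 fold change was 0.33 (SE 0.084, adjusted p = 0.196). NM_001033955.1 read 232, 260 and 237 FPKM in sham, 263, 262 and 243 FPKM in SNI and 242, 295 and 283 FPKM in SNI + G15. Its G15 values overlapped those of SNI, with a log2 fold change of 0.10 (adjusted p = 0.709). The share of Calca FPKM in NM_001033956.1 was 56.5% ± 0.624 in sham (SD, n = 3), 55.3% ± 0.546 in SNI and 59.1% ± 3.73 in SNI + G15. The G15 libraries split, with 61.7% and 60.7% in replicates 1 and 3 and 54.8% in replicate 2. The difference from SNI of 3.72 percentage points gave an exact permutation p of 0.3. The minor form XM_008759676.2 held 0.256% of Calca in sham, 0.349% in SNI and 0.520% in SNI + G15, and NM_017338.2 was listed at 0 in 4 of 9 libraries.

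**Figure D4:**
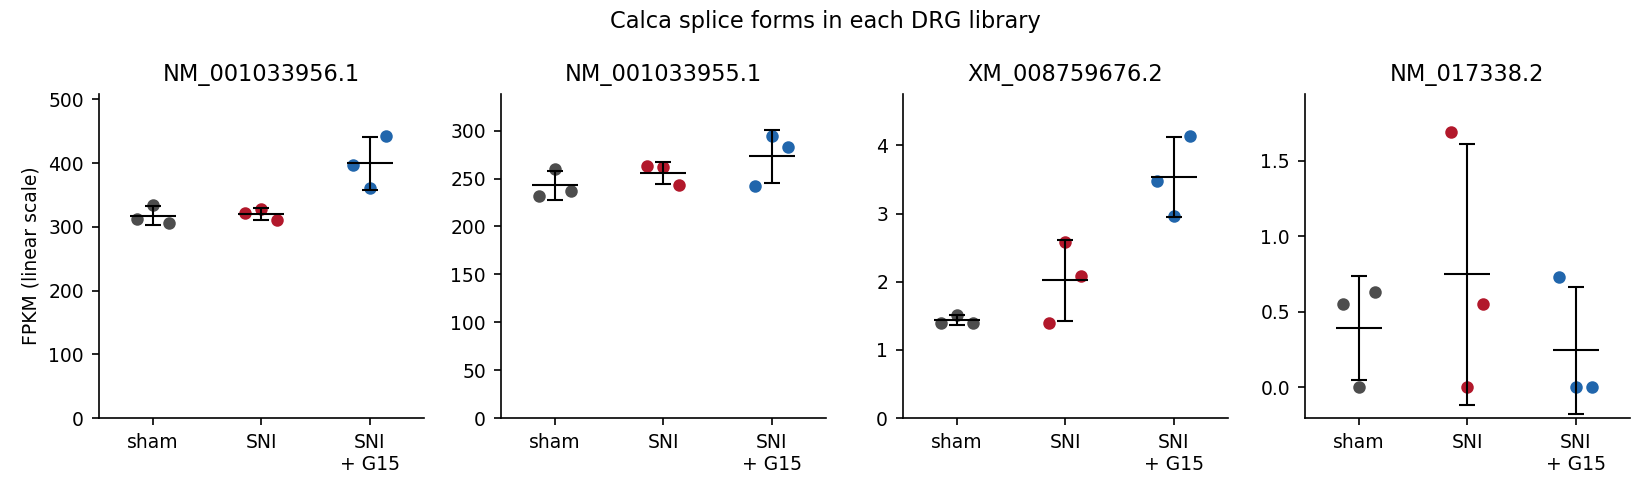
FPKM of the 4 Calca splice forms (linear axes, 1 panel per RefSeq accession, panels scaled separately) in each of the 9 libraries, with the group mean and SD (n = 3). NM_001033956.1 is highest in SNI + G15 (360 to 443 FPKM), and the 2 forms at the right stay below 5 FPKM.

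Among forms of the other genes, the Tac1 form NM_012666.2 carried a called fall. It read 72.7, 68.8 and 62.8 FPKM in sham, 54.5, 56.0 and 51.7 FPKM in SNI and 50.8, 55.2 and 56.4 FPKM in SNI + G15. Every sham value stood above all injured libraries. On the log2 scale this was -0.36 in SNI against sham (SE 0.064, adjusted p = 0.0273) and -0.36 in SNI + G15 against sham (SE 0.074, adjusted p = 0.0419). The more abundant Tac1 form, NM_001124768.1, had -0.19 in SNI against sham (SE 0.066, adjusted p = 0.160). That the forms moved differently was not tested. The single Sst transcript, NM_012659.2, fell after injury with a log2 fold change of -0.52 (adjusted p = 0.00819). The only tested Nppb form, NM_031545.1, was not called. It had 1.47 in SNI against sham (SE 0.524, adjusted p = 0.173) and 1.46 in SNI + G15 against sham (adjusted p = 0.155).

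Paralogous peptide genes were scarce, and 4 of 8 were tested. Tac3 is among the 4, but it reached 1 FPKM only in SNI + G15 and was tested for that reason. Iapp, which encodes amylin and belongs to the calcitonin family, fell after injury with a log2 fold change of -0.71 (adjusted p = 0.000475) and was at -1.13 in SNI + G15 against sham (adjusted p = 6.18e-05). It read 14.5, 15.9 and 13.5 FPKM in sham, 10.3, 9.66 and 7.98 FPKM in SNI and 4.75, 5.84 and 7.24 FPKM in SNI + G15. Nppa, the atrial natriuretic peptide gene and neighbour in family of Nppb, rose with G15 against SNI by 0.48 on the log2 scale (adjusted p = 0.0412). Adm, which encodes adrenomedullin, was higher in SNI + G15 than in sham by 0.68 (adjusted p = 0.00932).

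Of 17 receptor genes, 10 were tested. After injury 1 was higher and 3 were lower, where 23.3% and 22.4% of all genes were, with a median log2 fold change of 0.12 against 0.0010 over all genes. Calcrl forms the CGRP receptor with Ramp1 and adrenomedullin receptors with Ramp2 and Ramp3. Ramp3 fell by 0.47 on the log2 scale after injury (adjusted p = 0.000412) and Ramp2 by 0.18 (adjusted p = 0.0137). Between SNI + G15 and SNI, 3 were higher and 2 lower, where 7.98% and 7.25% of all genes were. Ramp1 read 9.73, 8.88 and 8.11 FPKM in SNI and 16.6, 14.0 and 14.0 FPKM in SNI + G15, and its sham values of 7.54, 8.54 and 7.55 FPKM lay with those of SNI. The log2 fold change of Ramp1 was 0.75 against SNI (SE 0.103, adjusted p = 0.00222) and 0.88 against sham (adjusted p = 0.000118). Ramp2 and Ramp3 were each higher by 0.34 against SNI (adjusted p = 0.0134 and 0.0158). Calcrl and the somatostatin receptor gene Sstr2 are named after their values were seen. Calcrl had a log2 fold change of -0.084 against SNI (adjusted p = 0.551) and was not called. Sstr2 read 1.23, 1.45 and 1.87 FPKM in SNI and 0.62, 0.95 and 0.58 FPKM in SNI + G15. Npr3, the natriuretic peptide clearance receptor, was higher in SNI than in sham by 0.22 (adjusted p = 0.0369) and then lower with G15 than in SNI, at -0.57 (adjusted p = 0.00185). Npr1, the receptor for B-type natriuretic peptide, was higher in SNI + G15 than in sham by 0.62 (adjusted p = 0.0114). In that comparison 3 of 10 receptor genes were higher and 1 lower, against 43.2% of all genes called. Tacr1, the substance P receptor, is among the 3, but it reached 1 FPKM only in SNI + G15 and was tested for that reason. The length offsets were read only for the 5 peptide genes, and their effect on the receptors was not tested.

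Genes of the machinery that cuts and packs neuropeptides were called in both directions. Of 20 genes for processing and dense-core vesicle cargo, 19 were tested, and after injury 4 were higher and 9 lower, where 23.3% and 22.4% of all genes were, with a median log2 fold change of -0.12. Vgf, a secreted granin-like precursor, rose by 2.47 (SE 0.064, adjusted p = 5.55e-10). Ptprn, a dense-core vesicle membrane protein, rose by 0.56 (adjusted p = 7.89e-07), as did the proprotein convertase gene Pcsk1 by 0.56 (adjusted p = 3.69e-06). Chga, which encodes chromogranin A, fell by 0.64 (adjusted p = 2.31e-06). With G15 against SNI, 2 were higher and 4 lower, where 15.2% of all genes were called. The convertase gene Pcsk2 fell by 0.39 (adjusted p = 0.000990) and Chgb, for chromogranin B, by 0.26 (adjusted p = 0.0224), while Vgf rose by a further 0.33 (adjusted p = 0.00688). In SNI + G15 against sham, 4 were higher and 10 lower, where 43.2% of all genes were called. Pcsk2 was at -0.74 (adjusted p = 3.36e-06) and Pcsk1 at 0.67 (adjusted p = 2.19e-05).

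All 12 genes for peptide-degrading enzymes were tested. After injury 4 were higher and 4 lower, where 45.7% of all genes were called. Between SNI + G15 and SNI 3 were higher and 1 lower (15.2% of all genes called), and in SNI + G15 against sham 4 were higher and 5 lower (43.2% of all genes called). Nln, for neurolysin, rose by 0.62 after injury (adjusted p = 7.04e-06), and Enpep, for aminopeptidase A, fell by 0.68 (adjusted p = 3.88e-05). Mme, for neprilysin, which degrades substance P and natriuretic peptides, fell by 0.61 with G15 against SNI (adjusted p = 0.0105). Anpep, for aminopeptidase N, rose by 0.55 (adjusted p = 0.00124) and Ace by 0.47 (adjusted p = 0.0106) in the same comparison. The counts include Cma1, the mast cell chymase gene, which reached 1 FPKM in SNI + G15 alone and so was tested only because it was high there. Dpp4 reached 1 FPKM in sham alone, at 1.10 FPKM in replicate 3, and was tested for that reason. It counts among the lower genes in both comparisons with sham.

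**Figure D5:**
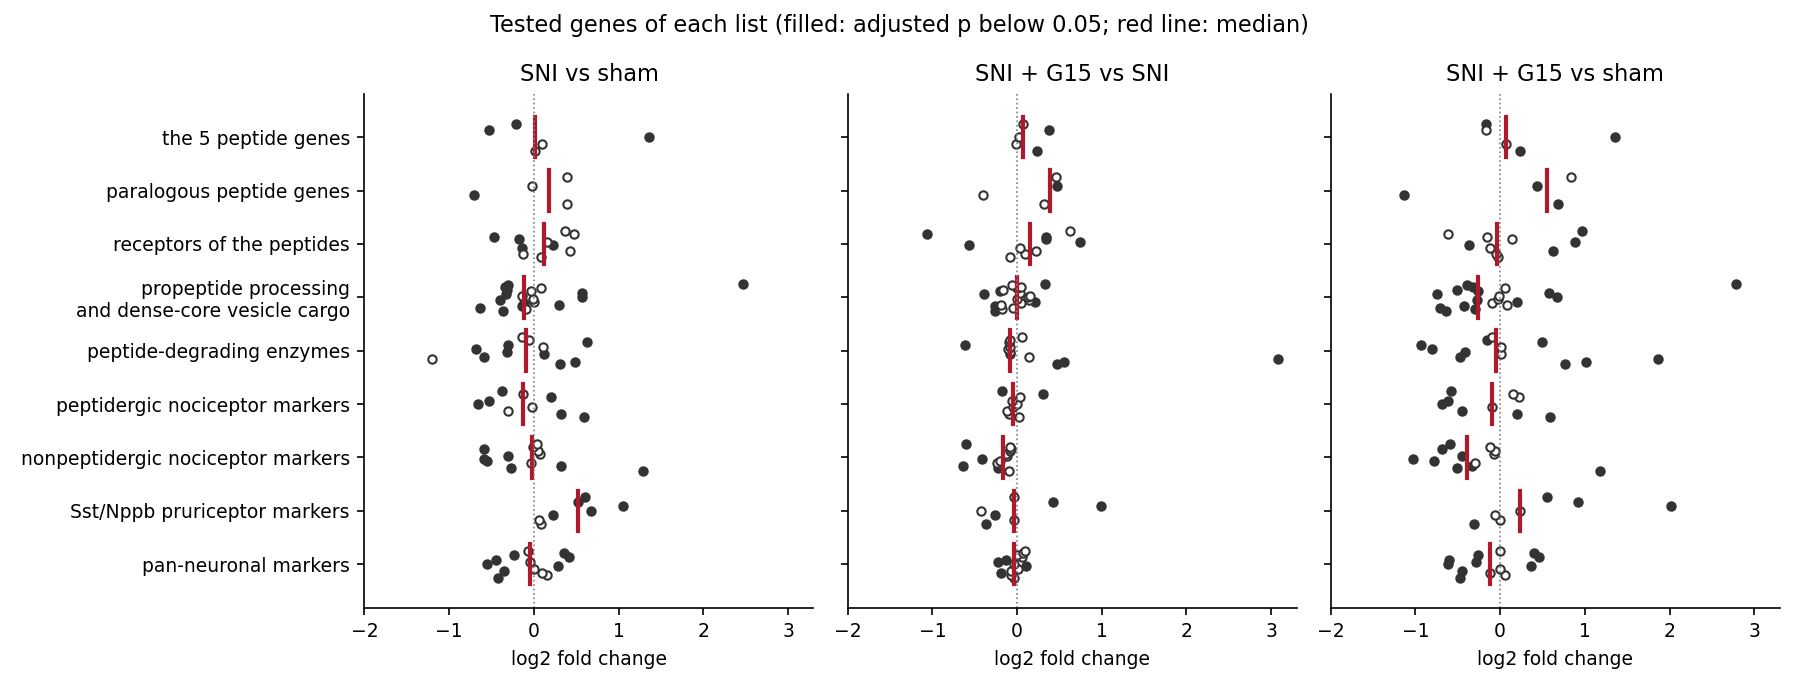
Log2 fold changes of the tested genes of 9 lists in the 3 comparisons (points, filled where the adjusted p is below 0.05) with the median of each list (red line). Vgf stands out at 2.47 in the processing list after injury. The point furthest right among degrading enzymes with G15 is Cma1, which passed the filter only through that group.

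Markers of the neurons that hold these peptides gave the setting of the changes. Of 9 tested peptidergic nociceptor markers, 3 were higher and 3 lower after injury, where 23.3% and 22.4% of all genes were. Prdm12, a transcription factor of nociceptors, fell by 0.53 on the log2 scale (adjusted p = 1.89e-05), and Trpv1, the capsaicin receptor, by 0.37 (adjusted p = 2.69e-05). Gfra3 rose by 0.31 (adjusted p = 0.000432). With G15 against SNI, 1 was higher and 1 lower, where 7.98% and 7.25% of all genes were. These were Tlx3 at 0.30 (adjusted p = 0.00939) and Trpv1 at -0.18 (adjusted p = 0.0262). Pan-neuronal markers had a median log2 fold change of -0.047 after injury and -0.031 with G15, with 3 higher and 5 lower of 13, then 1 higher and 3 lower.

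Of 7 tested markers of the Sst and Nppb class of itch neurons, 5 were higher and none lower after injury, where 23.3% of all genes were higher, with a median log2 fold change of 0.53. Osmr, a subunit of the interleukin-31 receptor, rose by 0.53 (adjusted p = 6.67e-05), Lifr by 0.67 (adjusted p = 1.24e-05) and Ptafr by 0.61 (adjusted p = 6.40e-05). These genes are also transcribed outside neurons. Il31ra, the partner of Osmr, named after its values were seen, read 13.2 to 14.1 FPKM in sham and 14.1 to 14.6 FPKM in SNI, with a log2 fold change of 0.059 (adjusted p = 0.310). With G15 against SNI, 2 were higher and 2 lower, where 15.2% of all genes were called. Nts, the neurotensin gene, was at 0.99 (adjusted p = 0.00429), Osmr at 0.42 (adjusted p = 0.0134) and Cysltr2 at -0.37 (adjusted p = 0.00356).

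The 7 neuropeptide genes listed as injury-induced were all tested. Of them 5 rose and 1 fell, where 23.3% of all genes were higher and 22.4% lower. The gene that fell was Crh, at -0.77 on the log2 scale (adjusted p = 2.89e-05). Vip read 0 FPKM in every sham library and was tested only because it was high in the injured groups. Gal, the galanin gene, had a log2 fold change of 4.76 (adjusted p = 4.13e-11) and Npy 6.62 (adjusted p = 3.28e-10). The summed level of the 7 genes went from 57.7 to 66.8 FPKM in sham to 1132 to 1166 FPKM in SNI. The 5 peptide genes followed above summed to 1009 to 1087 FPKM in sham and 958 to 1019 FPKM in SNI. As a sum, the listed injury-induced peptides thus reached the level of these 5 genes, of which Nppb was itself scarce in sham and higher after injury. Most of that sum was Npy, at 726, 692 and 715 FPKM in SNI, and Gal, at 247, 261 and 274 FPKM. With G15 against SNI only 1 of the 7 was called, where 15.2% of all genes were, Npy at 0.21 (adjusted p = 0.0273). The difference between the 2 sets of peptides in their response to G15 was not tested.

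Over the 9 libraries, the gene whose log2 CPM followed Calca most closely was Ssr2, a subunit of the translocon-associated complex (Pearson r = 0.99), followed by Rps16 and Gsto1. Calcb was nearest to Nol10, Dcun1d1 and Tamm41 (r from 0.95 to 0.96), and Tac1 to Cpq (r = 0.99), Mrpl44 and a gene listed only by its identifier 103693210. Sst was nearest to Anxa6 (r = 0.99), Nudt3 and Ubac1, and Nppb to Abhd5 (r = 0.99), Gnai3 and Igsf6. Between members, Calca and Calcb had r = 0.51, Tac1 and Sst r = 0.73, and Tac1 and Nppb r = -0.79. These values describe 9 points that share libraries and 3 groups, so they are given without a test.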

How the data were processed

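Ganglion RNA was sequenced as paired reads in 9 samples, 3 per group. For genes and for transcripts the authors deposited FPKM, a gene's value being the sum over its transcripts, and estimated counts that need not be whole. The deposited TPM values, group averages and plot files were not used. The aligner and annotation are not given in the sources used here. The submitters' processing notes name the mouse builds GRCm38 and mm10, whereas the gene and transcript identifiers are those of rat. RefSeq's GRCr8 table, used for names and promoters, held 18599 of the 20194 gene identifiers. The labels' extraction text names another cell type than ganglia. Columns headed as control were taken as sham, the group left by the other names.

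After rounding, edgeR 4.0.16 (R 4.3.3) was run on the estimated counts with TMM scaling and its quasi-likelihood test, within each comparison. Following the study's filter, the 14305 genes that reached 1 FPKM in any sample were tested. The threshold was an adjusted p of 0.05 (Benjamini-Hochberg). The scripts were tested on simulated data. Splice-form shares and ratios were compared by exact permutation (SciPy 1.17.1). Alternatives used DESeq2 1.42.0, limma 3.58.1 with a pseudocount of 1 or 0.1, other scalings and filters, all 9 libraries, a replicate block, and each library left out. Length offsets and summed CGRP counts were added after seeing the data. The members and the gene lists were chosen with earlier results of these data known. Listed genes are named where called, up to 4 per list and comparison by adjusted p, and some that this rule selects are left unnamed.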

Additional observations from a re-analysis of the deposited data

How the results depend on the processing

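Of the results recomputed under alternatives that keep all libraries, 170 kept their direction and their side of the threshold (counts within 1.5 times), 3 counts moved further, 3 results reversed, 3 newly passed and 7 no longer passed. No alternative at the gene level ended the fall of Sst, the fall of Tac1 or the rise of Nppb in SNI against sham. Length-trend offsets, added after seeing the data, gave 1 called gene in SNI + G15 against SNI (2 in the reported fit), with Calca at 0.078 (adjusted p = 0.125), Sst at 0.14 (0.117), Calcb at -0.19 (0.0309), Tac1 at -0.082 and Nppb at -0.22. In SNI against sham they gave Calcb 0.14 (0.0142). Against sham, SNI + G15 then had Calcb at -0.054 and Sst at -0.36 (0.00123). Tac1 in SNI + G15 against sham did not pass with library totals alone (-0.13, adjusted p = 0.0934) or limma-trend (-0.12 with a pseudocount of 1, -0.13 with 0.1). Limma-trend called 1 Calca splice form there. That comparison had 3 called genes as reported, 2 with library totals alone, limma-trend or the block, and 4 with length offsets. The causes were not tested.

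Libraries with the same number did not deviate together, as 0 of 9 correlations were above 0.1, so the numbers were not taken to pair samples. With a replicate block, 1 gene was called in SNI + G15 against SNI, Calca there had 0.24 (adjusted p = 0.0645), and Tac1 in SNI + G15 against sham had -0.17 (0.0656).

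Leaving out 1 library at a time gave 3 to 4 called genes in SNI against sham, 0 to 2 in SNI + G15 against SNI (0 without SNI replicate 2 or 3) and 1 to 4 in SNI + G15 against sham (1 without sham replicate 1). Calca was between -0.011 and 0.057 in SNI against sham, between 0.17 and 0.28 in SNI + G15 against SNI, and between 0.18 and 0.28 in SNI + G15 against sham. Calcb lay between 0.060 and 0.13 in the first comparison and between -0.039 and 0.035 in the second. In the second, Sst lay between 0.28 and 0.47 and Nppb between -0.11 and 0.11. In the third, Tac1 lay between -0.21 and -0.13 and Sst between -0.26 and -0.072. Depth limits Nppb most, which had 13 to 39 reads per library.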

Other observations

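Other cells and neurons of the ganglion changed beside the peptide genes. Of 10 markers of myelinated A-fibre neurons, 8 were lower and none higher after injury, with a median log2 fold change of -0.42. Over all tested genes, 22.4% were lower and 23.3% higher after injury. Nefm, a neurofilament gene, was at -0.67 (adjusted p = 2.48e-08) and Pvalb at -0.63 (adjusted p = 1.74e-06). Of 12 nonpeptidergic nociceptor markers, 2 were higher and 5 lower after injury. Gfra1, a receptor for glial cell line-derived neurotrophic factor, rose by 1.29 (adjusted p = 3.97e-10). Mrgprd, whose product the study describes as a membrane receptor for β-alanine, was at -0.58 (adjusted p = 2.20e-06). With G15 against SNI, 4 of the 12 were lower and none higher, where 7.25% and 7.98% of all genes were, with Lpar3 at -0.64 (adjusted p = 0.000617).

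Of 8 myelinating Schwann cell markers, 7 fell after injury, with Mbp at -0.98 (adjusted p = 1.56e-09), and 6 were higher in SNI + G15 than in SNI. Their summed level was 5381 to 5493 FPKM in sham, 3016 to 3074 FPKM in SNI and 3235 to 3376 FPKM in SNI + G15. Of 7 satellite glia markers, 3 were higher and 2 lower after injury. With G15 against SNI 3 were higher and 1 lower, with Glul, for glutamine synthetase, at 0.40 (adjusted p = 0.000265). Over all tested genes, 23.3% were higher and 22.4% lower after injury, and 7.98% higher and 7.25% lower with G15 against SNI. The tool was edgeR (quasi-likelihood), with Benjamini-Hochberg adjustment over 14305 genes.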
